A study of Homo sapiens with 14 samples.

Results

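The canonical histone genes were examined in HEK293 cells, a human embryonic kidney line, that stably carried HOXD13 or HOXD9. Members were all genes whose older symbol begins with HIST followed by a cluster number and H, found by matching the gene identifiers of the array's annotation to the older symbols in RefSeq. They were read by 51 probe sets annotated to a single gene, of 54613 probe sets in all, and covered 45 genes, of which 43 code for protein and 2 (H2AC5P and H4C10P) are pseudogenes. RefSeq holds 90 genes with such an older symbol. A further 20 probe sets were annotated to several histone genes and are described separately. By class, the members comprised 7 probe sets for the linker histone H1, 11 for H2A, 14 for H2B, 9 for H3 and 10 for H4, and 47 of the 51 read genes of chromosome 6, with the other 4 on chromosome 1.

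RNA was measured on 14 Affymetrix arrays, 1 per culture. Cells had been transfected with a V5-tagged HOXD13 vector, with a V5 vector alone, with an HA-tagged HOXD9 vector or with an HA vector alone, and all were selected with G418, a drug to which the plasmid gives resistance. Each HOX gene had 4 lines, namely the uncloned mix and its derived clones (a, b, c), and each vector had 3 arrays called biological replicates. The question of each comparison was how cells carrying a HOX gene differ from cells with the vector of the same tag. All groups share the HEK293 background, the labels do not name the promoter that drives the transgenes, and the lines of 1 HOX gene are related to each other, so p-values reflect only how these cultures vary, which may be partly technical. Levels are log2 values from GCRMA, in which a difference of 1 is a 2-fold change, and transcripts that are not detected lie near a floor of about 2.

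Canonical histones package newly replicated DNA. Core histones H2A, H2B, H3 and H4 form the nucleosome and H1 binds the linker DNA between nucleosomes. Their genes lie in clusters, lack introns and are transcribed chiefly in S phase, and most of their mRNAs end in a conserved stem-loop, bound by SLBP, in place of a poly(A) tail. Some members, among them H1-2, H2AC6, H2BC5 and H2BC12, can also yield polyadenylated mRNA outside S phase. The standard Affymetrix labelling named in the labels primes cDNA from the poly(A) tail, so the arrays read polyadenylated histone transcripts better than stem-loop ones. Fewer cells expressing a gene and less RNA per cell cannot be told apart in these bulk samples.

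Upstream sequences of 5 members are printed because their probe sets differ in level across the HOXD13 lines, as described below. They are the 200 bases before the RefSeq start, on GRCh38.p14 and on the strand of the gene, and capitals mark CCAAT, the octamer ATTTGCAT, TATAAA and AAACACA, the last known as the H1 box, on either strand. None of these motifs overlapped another in the printed windows. H2AC6 lies at chr6:26123972-26124171 on the plus strand, H2BC5 at chr6:26157921-26158120 on the plus strand, H2BC12 at chr6:27146859-27147058 on the minus strand, H1-2 at chr6:26056471-26056670 on the minus strand and H4C11 at chr6:27823892-27824091 on the plus strand.
H2AC6: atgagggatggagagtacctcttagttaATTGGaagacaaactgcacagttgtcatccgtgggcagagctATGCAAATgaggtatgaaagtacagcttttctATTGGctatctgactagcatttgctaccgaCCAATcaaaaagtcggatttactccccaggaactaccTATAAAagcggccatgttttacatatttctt
H2BC5: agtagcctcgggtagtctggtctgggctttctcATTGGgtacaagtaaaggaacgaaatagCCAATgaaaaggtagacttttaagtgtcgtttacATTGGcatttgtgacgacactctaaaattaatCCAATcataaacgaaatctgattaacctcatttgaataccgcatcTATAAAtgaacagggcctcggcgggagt
H2BC12: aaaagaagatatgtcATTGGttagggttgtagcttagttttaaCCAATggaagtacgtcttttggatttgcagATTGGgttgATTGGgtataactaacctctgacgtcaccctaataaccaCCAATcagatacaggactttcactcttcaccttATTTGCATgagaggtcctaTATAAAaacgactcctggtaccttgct
H1-2: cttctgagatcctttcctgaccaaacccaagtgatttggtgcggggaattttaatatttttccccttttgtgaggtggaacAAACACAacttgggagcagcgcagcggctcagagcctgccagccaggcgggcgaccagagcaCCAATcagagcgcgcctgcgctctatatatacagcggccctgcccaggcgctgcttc
H4C11: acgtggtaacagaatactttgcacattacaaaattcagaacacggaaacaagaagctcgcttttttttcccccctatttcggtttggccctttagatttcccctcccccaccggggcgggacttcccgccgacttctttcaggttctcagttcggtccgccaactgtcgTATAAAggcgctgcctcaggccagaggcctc

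In windows of the 250 bases before each start, 41 of the 45 member genes had a RefSeq promoter. CCAAT was present in 36 of the 41 (87.8%), against 33.0% of all 27305 promoters, TATAAA in 28 (68.3%, against 11.1%) and the octamer in 16 (39.0%, against 1.66%). The octamer fell in 6 of 8 H2A and 10 of 13 H2B promoters and in none of the H1, H3 or H4 promoters, and the H1 box fell in 6 of 6 H1 promoters and in no promoter of the other classes. CCAAT was found in every H1, H2A, H2B and H3 promoter and in 2 of 7 H4 promoters. CAATAAA and TCGTAAA, sequences known to be bound by HOX proteins of the posterior groups, were searched as well: the first occurred in 2 promoters (4.88%, against 3.78% of all promoters) and the second in 0 (against 0.450%). These are matches of letters, not binding sites.

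Most of the single-gene histone probe sets gave no signal above the floor in these cells. This holds for probe sets and not for genes, since several of these genes are also read by brighter probe sets annotated to more than 1 histone gene, described further on. Of the 51 probe sets, 36 (70.6%) stayed under 3 on all 14 arrays, against 51.7% of all probe sets. Their values ran between 2.11 and 2.80, and the largest distance of any HOX line from its vector mean among them was 0.248. These were 4 probe sets for H1-1, H1-5 and the testis linker histone H1-6; 7 for H2AC4, H2AC5P, H2AC14, H2AC15, H2AC16 and one of the 2 for H2AC25; and 8 for H2BC1, known from testis, H2BC3, H2BC4, H2BC11, H2BC13, H2BC14, H2BC15 and H2BC17. All but one of the H3 probe sets (8 of 9, for H3-4, H3C1, H3C3, H3C6, H3C7, H3C8 and H3C11) and of the H4 probe sets (9 of 10, for H4C1, H4C4, H4C5, H4C7, H4C8, H4C9, H4C10P and H4C13) were there too. The remaining 15 probe sets, of 14 genes, reached 3 on some array, and 10 of them, of 9 genes, had a value of at least 5 on at least 3 arrays (19.6%, against 36.3% of all probe sets). Of these 10, 2 (H2AC6 and H2BC9) met that level on fewer than 3 arrays outside the HOXD13 lines, so the counts over the 10 below are descriptions and support nothing.

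H2BC4 and H2AC6 are neighbours that are transcribed away from each other from 1 intergenic stretch, which is largely the H2AC6 sequence printed above. H2BC4, an H2B gene, read 2.55, 2.48, 2.48 and 2.46 in the HOXD13 lines mix, a, b and c, and 2.50, 2.49 and 2.49 in the V5 vectors. That probe set was at the floor on every array. A probe set annotated to H2BC4 and other H2B genes (208490_x_at) read 6.36, 7.06, 7.39 and 4.99 in the HOXD13 lines and 5.49, 5.37 and 5.16 in the V5 vectors, so the level of H2BC4 itself is not settled by these arrays.

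The levels that follow rest on closely related sequences. Of the 51 probe sets, 12 have identifiers ending in _s_at or _x_at, which can bind transcripts of several genes, and they include 6 of the 10 with a value of at least 5 on at least 3 arrays, among them H2AC6, both probe sets of H2BC5, H2BC6, H2BC9 and H4C11. RefSeq also lists older symbols of several other H2B genes under H2BC5. For those probe sets the gene named is the annotated one, and reads of a near-identical copy could not be separated.

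The transgenes were read first, as a check of the labels. HOXD13 probe set 207397_s_at read 12.32, 12.55, 12.59 and 12.24 in the HOXD13 lines mix, a, b and c, and 6.84, 7.01 and 6.94 in the V5 vectors, and HOXD9 probe set 205605_at read 6.84, 6.70, 6.65 and 7.76 in the HOXD9 lines against 2.52, 2.83 and 2.82 in the HA vectors. A second HOXD9 probe set, 205604_at, read 4.33, 4.54, 4.37 and 4.38 in the HOXD9 lines against 4.21, 4.24 and 4.20 (adjusted p = 1, limma), and was highest in HOXD13 clone c (6.78, against 5.63 to 5.91 in the V5 vectors). HOXD13 clone c was thus nearly as high as its sister lines in 207397_s_at. The same held for 207398_at, also for HOXD13, where clone c had 8.26, beside 8.39 for mix, 8.39 for clone a and 8.41 for clone b. V5 vectors were at 3.05, 3.45 and 3.44 in 207398_at. A different one for HOXD13, 236681_at, had values in lines mix, a, b and c of 10.15, 10.23, 10.42 and 8.87. In 236681_at the V5 vectors were already at 8.93, 8.94 and 8.95, and clone c lay below them. Of the HEK293 markers examined, keratins KRT8 and KRT18, NEFL and VIM were above the floor, PAX2 reached 4.89 at most, and PAX8 and NEFM lay under 3. Genes of blood and endothelial cells were all under 3, and of 6 fibroblast genes COL1A1 was above the floor and 4 were under 3. The vector arrays of a tag differed little, with correlations of at least 0.999, against 0.981 at the lowest between HOXD13 lines.

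In HOXD13 lines mix, a and b, 7 histone probe sets of 6 genes stood at least 1 log2 unit, or 2-fold, above the mean of the V5 vectors, while HOXD13 clone c stood near or below the vectors. The genes were H2AC6, H2BC5 (both probe sets), H1-2, H2BC9, H2BC12 and H2BC6, thus 1 H2A, 4 H2B and 1 H1 gene. The 7 are 13.7% of the 51 members, and 0.681% of all probe sets met the same condition. With all 4 lines set against the vectors no histone probe set was called. Without clone c, left out after its values were seen, these 7 were, which is a description only.

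H2AC6, which encodes a core H2A, read 6.63, 7.05, 7.48 and 5.13 in the HOXD13 lines mix, a, b and c, and 4.90, 4.84 and 4.83 in the V5 vectors. All 4 lines lay above all 3 vectors, but clone c exceeded the vector mean by 0.27 while the others exceeded it by 1.77 to 2.62. The difference of means was 1.71 on the log2 scale (SE 0.44), a 3.28-fold higher mean, with an adjusted p of 0.0809 in limma over all 54613 probe sets. It ranked 46 among all probe sets by size of increase.

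H2BC5, a core H2B gene, was read by 2 probe sets that gave the same order of lines. Probe set 209911_x_at read 8.40, 8.63, 8.97 and 6.74 in HOXD13 lines mix, a, b and c, and 6.70, 6.61 and 6.59 in the V5 vectors, and probe set 222067_x_at read 8.32, 8.51, 8.86 and 6.20, against 6.43, 6.72 and 6.92 in the vectors. In the first, clone c lay just above every vector, and in the second it lay below every vector. Their differences were 1.55 (SE 0.44, adjusted p = 0.115, limma) and 1.28 (SE 0.51, adjusted p = 0.321), so neither was called.

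H1-2, a linker histone of the somatic subtypes, read 8.30, 8.82, 9.35 and 5.83 in the HOXD13 lines mix, a, b and c, and 6.94, 6.62 and 6.84 in the V5 vectors. Clone c was 0.97 below the vector mean while the other lines were 1.50, 2.02 and 2.55 above it, and the 4 lines had an SD of 1.56 against 0.16 for the vectors. The difference of means was 1.28 (SE 0.70, adjusted p = 0.588, limma) and was not called.

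H2BC12, H2BC6 and H2BC9, also H2B genes, had the same order of lines. H2BC12 read 12.33, 12.48, 12.71 and 11.02 in HOXD13 lines mix, a, b and c, and 11.09, 11.14 and 11.14 in the V5 vectors, a difference of 1.01 (SE 0.34, adjusted p = 0.197, limma). H2BC6 read 8.25, 8.66, 8.77 and 6.97, against 7.14, 7.09 and 7.25 in the vectors, a difference of 1.003 (SE 0.37, adjusted p = 0.272). H2BC9 read 6.20, 6.57, 7.07 and 4.75, against 4.72, 5.01 and 5.27, a difference of 1.15 (SE 0.48, adjusted p = 0.368). In H2BC12 and H2BC6 clone c lay below all 3 vectors, and in H2BC9 it lay within their range, while mix, a and b lay above all vectors in each of the 3 genes.

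The remaining members above the floor differed less. H2AC25, an H2A gene of the chromosome 1 clusters, read 9.95, 9.98, 10.40 and 9.32 in HOXD13 lines mix, a, b and c, and 9.61, 9.61 and 9.63 in the V5 vectors. H4C11, an H4 gene whose upstream sequence above holds TATAAA alone, read 6.34, 5.98, 6.39 and 4.87, against 5.79, 5.71 and 5.74. H1-3, a linker histone, read 4.75, 4.97, 5.04 and 3.39, against 4.46, 4.38 and 4.37. In all 3 genes the lines mix, a and b lay above every vector and clone c below every vector, and the differences of means were 0.29 (SE 0.20), 0.15 (SE 0.34) and 0.13 (SE 0.35). Without clone c they were 0.49, 0.49 and 0.51, with adjusted p-values of 0.0545, 0.241 and 0.138 in limma. H2AC17 read 3.86, 4.42, 4.97 and 3.29, against 3.59, 3.64 and 3.55, and H2BC21 read 4.03, 3.81, 4.70 and 3.47, against 3.69, 3.79 and 3.79. H2AC8 read at least 3 only in HOXD13 clone b (3.23), and H1-4 lay at the floor in all 7 arrays of the V5 set. H3C2, the H3 gene that came above 3, differed by -0.08 (SE 0.09).

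**Figure D1:**
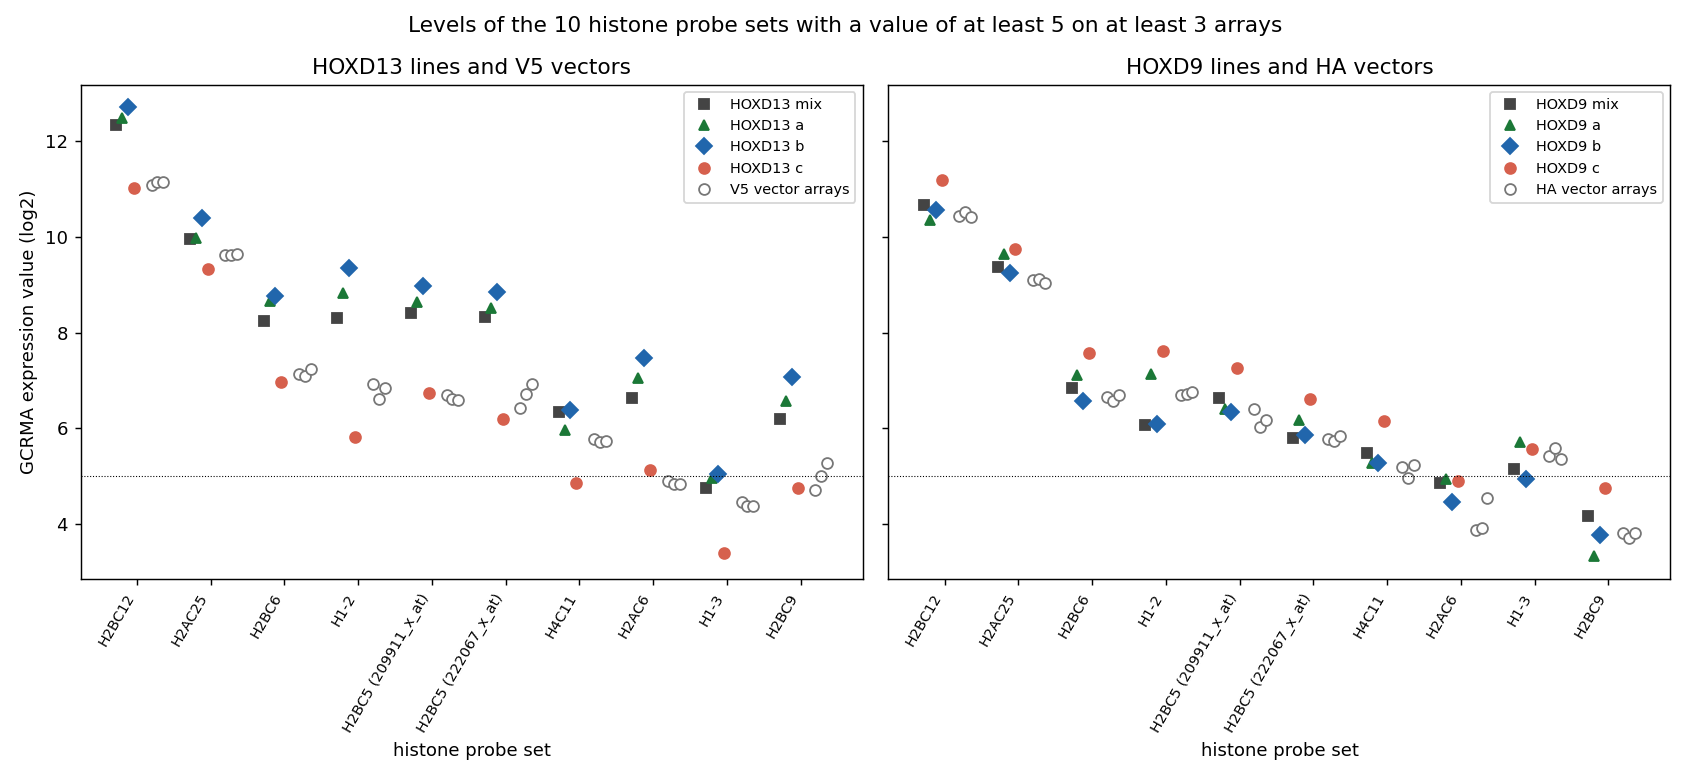
GCRMA values (log2, vertical axis) of the 10 histone probe sets with a value of at least 5 on at least 3 arrays, with HOXD13 lines and V5 vectors on the left and HOXD9 lines and HA vectors on the right, and 1 point per array; the dotted line marks 5. In each probe set HOXD13 mix, a and b lie above all V5 vectors and HOXD13 c is the lowest line, for example 5.83 in H1-2; heights of different probe sets are not comparable.

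Over all members, 0 of 51 were called higher or lower for HOXD13 at an adjusted p under 0.05 in limma, while 0.423% of all probe sets were called higher and 1.62% lower. At an unadjusted p under 0.05, 6 members (11.8%) were higher, against 4.21% of all probe sets, and 1 member (1.96%) was lower, against 7.14%. The lower one was the H3C6 probe set 236278_at at the floor, which was also the only member below all vectors in all 4 lines (1.96% of members, 8.38% of all probe sets). All 4 HOXD13 lines lay above all vectors in 2 members (3.92%, against 3.5% of all probe sets), H2AC6 and H2BC5 (209911_x_at). The median difference of the 51 members was 0.00 and that of all probe sets was 0.00, since most members lay at the floor.

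Line by line, 7 members (13.7%) stood at least 1 log2 unit above the vector mean in the HOXD13 mixed population, against 0.743% of all probe sets. In clone a there were 7 (13.7%, against 1.86%) and in clone b 8 (15.7%, against 2.52%), the additional one being H2AC17. Clone c had 0 such members, against 2.61% of all probe sets, and 1 member at least 1 unit below (1.96%, against 0.331%), which was H1-3. Of the 10 members with a value of at least 5 on at least 3 arrays, 9 had the order b, a, mix, c from high to low, an order shown by 24.3% of the 19816 probe sets that met that level, and the tenth, H4C11, had b, mix, a, c. Clone c was below every V5 vector in 7 of the 10 and above every vector in 2. Each line is 1 array, so a single line has no replicate check.

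**Figure D2:**
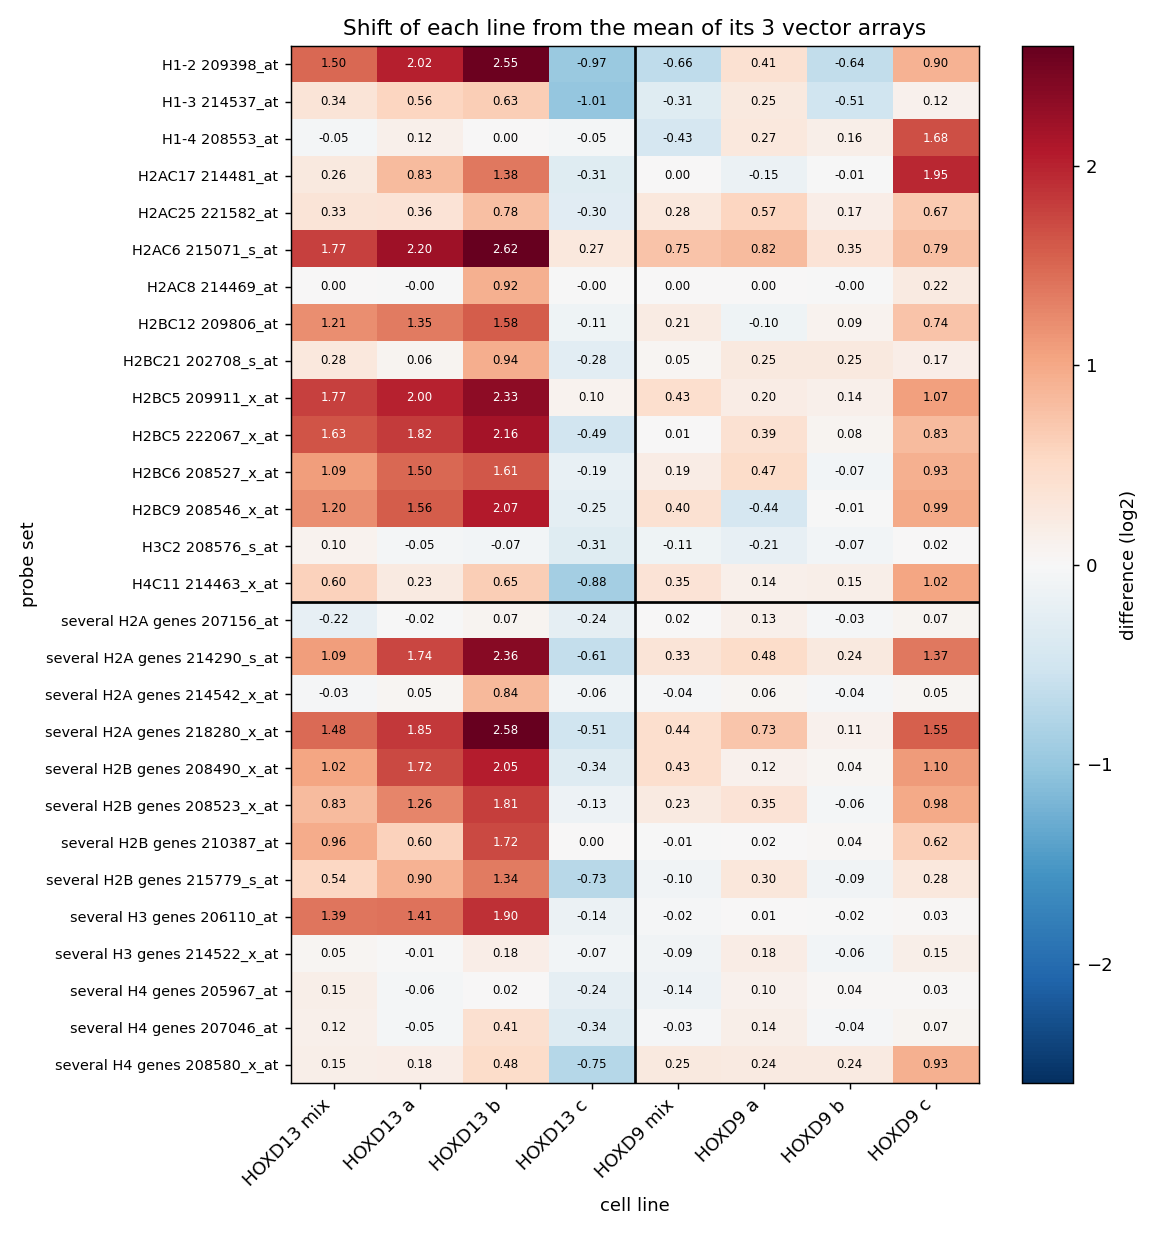
Difference of each HOX line from the mean of the 3 vector arrays of its tag (log2, colour and printed value) for the 15 histone probe sets that reached 3 (above the line) and the 13 annotated to several histone genes that reached 3 (below it). HOXD13 mix, a and b are red in H1-2 and in most H2A and H2B probe sets, up to 2.62 in H2AC6 for clone b, and HOXD13 c is pale or blue; in HOXD9, clone c is the line furthest above its vectors in most.

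Leaving out HOXD13 clone c, whose values had been seen to differ, brought 7 members past the threshold, all higher (13.7%, against 5.83% of all probe sets called higher in the same fit). Without it, H2AC6 rose by 2.20 (SE 0.24, adjusted p = 0.000268, limma), H2BC5 by 2.03 (adjusted p = 0.000342) and 1.87 (adjusted p = 0.000405) in its 2 probe sets, and H2BC12 by 1.38 (adjusted p = 0.000686). H2BC6 rose by 1.40 (adjusted p = 0.00236), H1-2 by 2.03 (adjusted p = 0.00828) and H2BC9 by 1.61 (adjusted p = 0.0114). Clone c was singled out on these same values. The p-values and counts of fits without it, here and elsewhere, are therefore descriptions and lend no support. None of the 19 single-gene probe sets of H3 and H4 passed in the fit without clone c. However, 8 of the 9 for H3 and 9 of the 10 for H4 stayed under 3 on all arrays and could hardly pass. That result therefore says little of H3 and H4 as classes, which are also read by multi-gene probe sets described below. With all 4 lines and only probe sets with a value of at least 5 on at least 3 arrays tested, H2BC5 (209911_x_at) and H2AC6 were called (adjusted p = 0.0310 and 0.0204; 2 of 10 members, against 2.57% of 19816 probe sets). H2AC6 met that level on HOXD13 arrays alone, so its call under this filter lends no support.

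**Figure D3:**
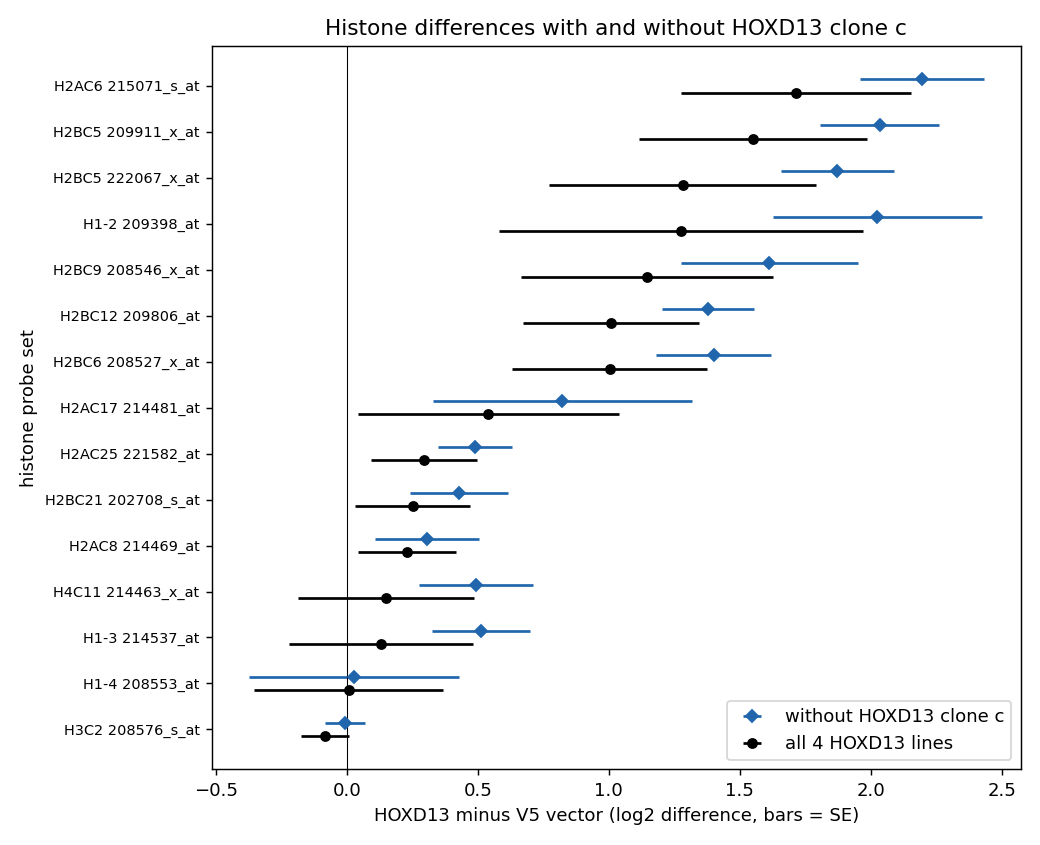
Difference of the HOXD13 mean from the V5 vector mean (log2, horizontal axis; bars are standard errors from limma) for the 15 histone probe sets that reached 3, without HOXD13 clone c (diamonds) and with all 4 lines (circles). Leaving out clone c moves H2AC6 to 2.20 with all lines at 1.71 and narrows most bars, and H1-4 and H3C2 stay near 0.

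An index of RNA quality moved with these levels. The 3 prime minus 5 prime difference of ACTB, which grows as RNA is shorter or less fully copied, in HOXD13 lines mix, a, b and c was 2.13, 2.01, 1.82 and 2.80, while V5 vectors had 2.24, 2.26 and 2.19. The mean of the 10 histone probe sets was 7.95, 8.16, 8.50 and 6.42 in the same lines, against 6.78, 6.78 and 6.86 in the vectors. The line with the highest histone mean had the lowest ACTB difference and clone c the reverse. The same index for GAPDH was 0.861 in clone c, against 0.533 to 0.568 in the other lines and 0.682 to 0.719 in the vectors. With the ACTB difference as a covariate in the fit, 4 members were called higher (7.84%, against 2.43% of all probe sets), namely H2AC6 with 1.64 (SE 0.26, adjusted p = 0.00586), H2BC5 with 1.49 and 1.20 (adjusted p = 0.0191 and 0.0346) and H2BC6 with 0.94 (adjusted p = 0.0241). HOXD13 clone c had the largest ACTB difference of the 14 arrays, so this covariate cannot be fully separated from clone c. The calls with it are therefore descriptions as well. Whether RNA quality took part in the values of clone c was not tested.

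**Figure D4:**
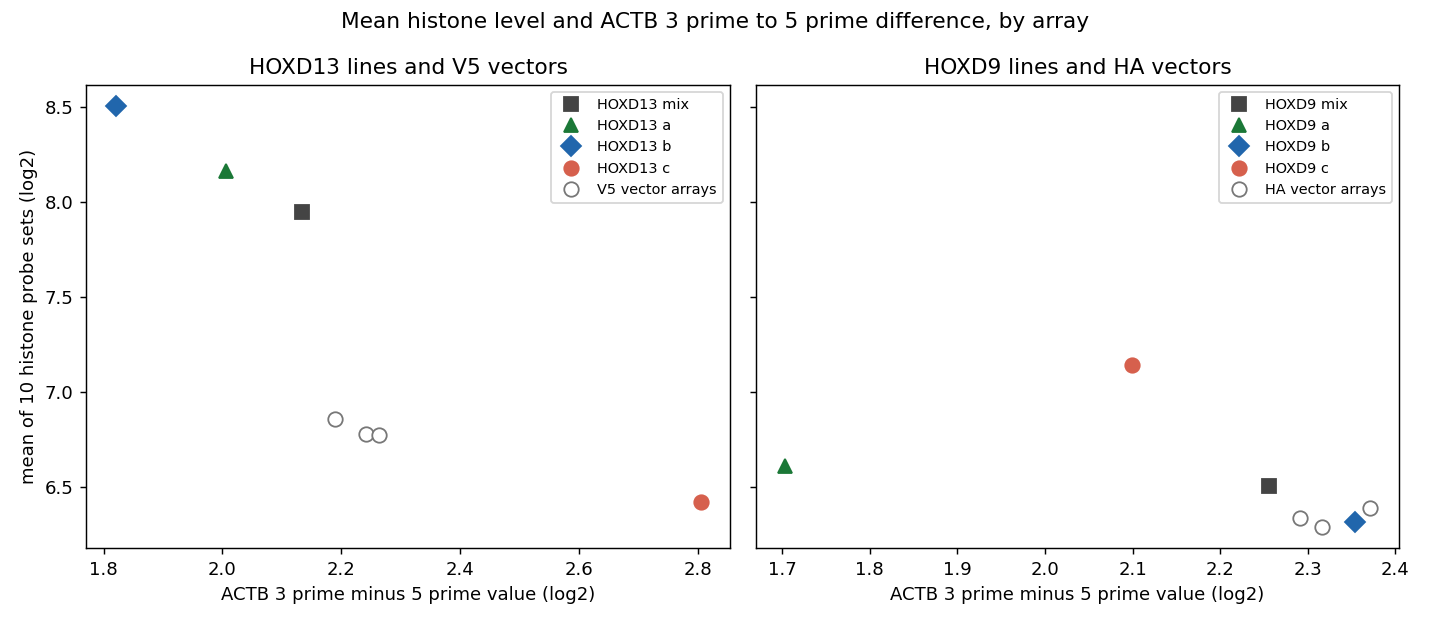
Mean of the 10 histone probe sets (log2, vertical axis) against the ACTB 3 prime minus 5 prime difference (log2, horizontal axis), 1 point per array, for HOXD13 lines and V5 vectors on the left and HOXD9 lines and HA vectors on the right. HOXD13 clone c lies furthest right at 2.80 with the lowest mean, 6.42, and clone b furthest left at 1.82 with the highest, 8.50; HOXD9 clone a lies furthest left of its set at 1.70 with a mean of 6.61.

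The 20 probe sets annotated to several histone genes gave a like picture for H2A and H2B. Of these, 13 reached 3 on some array, and in HOXD13 lines mix, a and b, 4, 5 and 7 of the 13 stood at least 1 log2 unit above the V5 vectors, while clone c had 0. A probe set for 2 H2A genes (218280_x_at) read 8.12, 8.49, 9.22 and 6.13 in HOXD13 lines mix, a, b and c, and 6.64, 6.53 and 6.75 in the vectors. Another with the same annotation (218279_s_at) lay at the floor, between 2.34 and 2.37 in the V5 set. A probe set for 10 H3 genes (206110_at) read 4.71, 4.73, 5.22 and 3.18, against 2.97, 3.48 and 3.51, so H3 was not wholly at the floor. The difference for 206110_at was 1.14 (SE 0.37, adjusted p = 0.182, limma). Another for the same 10 genes (214646_at) lay at the floor, at 2.19 on every array of the V5 set. A probe set for 14 H4 genes (205967_at) read 14.52, 14.31, 14.39 and 14.14, against 14.44, 14.34 and 14.34, a difference of -0.03. These values lie near the highest deposited value, 15.48. A different one with the same annotation (208580_x_at) read 5.87, 5.90, 6.20 and 4.98, against 5.75, 5.70 and 5.72, a difference of 0.01 (SE 0.26). In it the distance of clone c from the vector mean was -0.75. With all lines, none of the 20 was called in any comparison, and 5 were higher for HOXD13 at an unadjusted p under 0.05. Without HOXD13 clone c, 7 of the 20 were called higher (against 5.83% of all probe sets) and 0 lower. Among them were 206110_at for H3 by 1.57 (SE 0.16, adjusted p = 0.000182, limma) and 218280_x_at for H2A by 1.97 (SE 0.35, adjusted p = 0.00441). For H4, 205967_at had 0.04 (adjusted p = 1) and 208580_x_at had 0.27 (adjusted p = 0.557) in the same fit.

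In HOXD9 lines none of the 51 histone probe sets was called against the HA vectors in limma, where 0.0201% of all probe sets were called higher and 0.00916% lower. At an unadjusted p under 0.05 there were 0 members in either direction, against 4.45% of all probe sets higher and 3.92% lower. That 0 depends on a spread pooled over all groups. Over the 10 members passing the filter, the median SD was 0.91 in HOXD13 lines and 0.40 in HOXD9 lines. Without HOXD13 clone c the HOXD9 differences were the same. H2AC6 and H2AC25 then had unadjusted p-values of 0.0119 and 0.00976 in limma, and neither was called (adjusted p = 0.200 and 0.186). H2AC6 read 4.86, 4.93, 4.46 and 4.90 in the HOXD9 lines mix, a, b and c, and 3.87, 3.92 and 4.54 in the HA vectors, a difference of 0.67 (SE 0.44, adjusted p = 0.837). H2BC5 (209911_x_at) read 6.63, 6.40, 6.34 and 7.27, against 6.40, 6.03 and 6.17, a difference of 0.46 (SE 0.44). H1-2 read 6.07, 7.13, 6.09 and 7.62, against 6.70, 6.71 and 6.77, with lines on both sides of the vectors and a difference of 0.00 (SE 0.70).

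All 4 HOXD9 lines lay above all HA vectors in 2 members (3.92%, against 7.15% of all probe sets). H2AC25 read 9.36, 9.65, 9.26 and 9.76 in HOXD9 lines mix, a, b and c, and 9.10, 9.12 and 9.03 in the vectors, a difference of 0.42 (SE 0.20, adjusted p = 0.632, limma). H4C11 read 5.48, 5.27, 5.28 and 6.15, against 5.19, 4.97 and 5.24, a difference of 0.41 (SE 0.34, adjusted p = 0.959). Neither difference passed the threshold. Without HOXD9 clone c the difference was 0.21 for H4C11, 0.26 for H2BC5 (209911_x_at), -0.30 for H1-2 and -0.19 for H1-3, none of them called. H2BC12 read 10.67, 10.36, 10.55 and 11.20, against 10.45, 10.52 and 10.42, and H2BC6 read 6.84, 7.12, 6.57 and 7.57, against 6.65, 6.57 and 6.71, each with clone c highest. H1-3 had the largest negative difference, -0.11 (SE 0.35).

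Clone c was the high line of the HOXD9 set. It had 4 members at least 1 log2 unit above the HA vectors (7.84%, against 0.828% of all probe sets), where mix, a and b had 0 each (against 0.022%, 0.0916% and 0.0842%). The 4 were H2AC17, H1-4, H2BC5 (209911_x_at) and H4C11. H2AC17, an H2A gene, read 3.16, 3.00, 3.15 and 5.11 in HOXD9 lines mix, a, b and c, and 3.14, 3.16 and 3.18 in the vectors, so that clone c ranked 5 of all 54613 probe sets by its distance above the vectors. Probe sets annotated to H2AC17 and other H2A genes did not show this rise. In HOXD9 clone c, 207156_at read 3.09 and 214542_x_at read 2.97, which was 0.07 and 0.05 above the vector mean. Both lay near the floor, so the level of H2AC17 itself is not settled by these arrays. H1-4, a linker histone at the floor in the V5 set, read 3.67, 4.36, 4.26 and 5.78, against 4.10, 4.12 and 4.08, and clone c ranked 11. For HOXD9 mix, a, b and c the ACTB difference was 2.26, 1.70, 2.35 and 2.10, with 2.29, 2.32 and 2.37 for the HA vectors, so clone c was not the array with the extreme value here.

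The difference between the effect of HOXD13 and that of HOXD9 was tested in the same model, and 0 members were called, against 0.137% of all probe sets with a larger and 1.27% with a smaller effect of HOXD13. At an unadjusted p under 0.05 there were 0 members in either direction (against 3.12% and 6.89%). The difference of effects was 1.04 (SE 0.62, adjusted p = 0.754, limma) for H2AC6, 1.09 (SE 0.62, adjusted p = 0.706) for H2BC5 (209911_x_at) and 1.27 (SE 0.98, adjusted p = 0.929) for H1-2. Without HOXD13 clone c, 4 members were called with a larger effect of HOXD13 (7.84%, against 1.85%): H2AC6 by 1.52 (adjusted p = 0.0240), both H2BC5 probe sets by 1.57 and 1.55 (adjusted p = 0.0177 and 0.0147) and H2BC12 by 1.14 (adjusted p = 0.0227).

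In related lists of histone supply and the cell cycle, 4 probe sets fell and 1 rose in the HOXD13 lines, where 1.62% of all probe sets fell and 0.423% rose. Nothing particular to the lists is read from counts this small. The lists were chosen with earlier results of these data known, and their median differences lay between -0.05 and 0.05, against 0.00 for all probe sets. For histones made independently of replication, 0 of 25 probe sets rose and 1 fell in the HOXD13 lines: MACROH2A2, a macroH2A variant, read 8.36, 8.26, 8.16 and 8.40 in lines mix, a, b and c, and 8.91, 8.97 and 9.02 in the V5 vectors, a difference of -0.67 (SE 0.12, adjusted p = 0.0187, limma). Of 41 probe sets of histone chaperones 0 rose and 2 fell, ASF1B, which passes H3 and H4 to assembly factors, by 0.73 (adjusted p = 0.00420), and SSRP1, a subunit of FACT, by 0.28 (adjusted p = 0.0246). Of 38 probe sets of S phase genes 0 rose and 1 fell, CDC45, a part of the replicative helicase, which read 7.41, 7.58, 7.40 and 7.64, against 8.26, 8.18 and 8.29 (adjusted p = 0.0159). Clone c lay with its sister lines in MACROH2A2 and CDC45. Both were named because they passed with all 4 lines, which favours probe sets where clone c goes with the others. No contrast with the histone genes is drawn from them. Over the 38 S phase probe sets, the median distance from the vector mean was -0.044, 0.0001, 0.0016 and -0.138 in HOXD13 lines mix, a, b and c.

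Of 38 probe sets for 18 genes of histone mRNA transcription and processing, 0 passed in either direction (against 0.423% of all probe sets higher and 1.62% lower). SLBP, which binds the stem-loop, read 12.63, 12.74, 12.68 and 12.58 in HOXD13 lines mix, a, b and c, and 12.59, 12.58 and 12.51 in the V5 vectors, a difference of 0.10 (SE 0.06, adjusted p = 0.691, limma). CCND1, cyclin D1, named for the largest change in this list, read 7.61, 8.09, 8.13 and 6.10, against 6.23, 6.48 and 6.29 (difference 1.15, adjusted p = 0.235). Its order of lines was that of most histone genes above the floor. That order was shown by 24.3% of the 19816 probe sets with a value of at least 5 on at least 3 arrays, so no link is read from it. Of 20 probe sets of cell cycle exit genes 1 rose, CDKN2B, an inhibitor of CDK4 and CDK6, which read 8.54, 8.73, 8.91 and 8.25 against 7.36, 7.42 and 7.36 (adjusted p = 0.0151), and 0 fell, again beside 0.423% of all probe sets higher. In HOXD9 lines no probe set of these lists passed in either direction.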

How the data were processed

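Expression was measured in 14 cultures of HEK293 cells on Affymetrix arrays. Each probe set has 1 deposited log2 value per array, made by the authors with GCRMA per the submitters' processing notes; this method corrects background by probe sequence, equalises the arrays' distributions and combines probes into sets. Its version, like the build, is not given in the sources used here. Sorted values were identical within 0.00102 over the 7 arrays of the HA set and within 0.00195 over the 7 of the V5 set. They differed between the sets, so normalization appears to have been run per set, and no level was compared across sets. Precision is limited by the number of arrays.

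Of 54675 probe sets, 62 array controls were left out. Gene symbols came from the platform annotation of 2016, updated through RefSeq (GRCh38.p14), which matched 41043 of 41091 probe sets with 1 gene. Group means (4) were fitted to all 14 arrays jointly with lmFit and eBayes (with a trend of variance on the mean, no filter) of limma 3.58.1 in R 4.3.3, giving 10 residual and 1.07 prior degrees of freedom. Tests were two-sided with Benjamini-Hochberg adjustment over 54613 probe sets, and calls were made at an adjusted p under 0.05. The code was tested on simulated data. Other software was data.table (version 1.17.8), pandas 2.3.3, Python 3.11.15 and matplotlib 3.10.9, the last for figures.

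Probe sets named were the markers H2AC6, H2BC5 and H1-2, members called, the 8 largest rises and 4 largest falls among members with a mean of at least 5 over their tag set, the highest and lowest members of each class, and for each related list the called genes and those with the largest change. H2AC17, H1-4, H2AC8, H2BC21, H2BC4, SLBP, the multi-gene probe sets and HOXD13 probe sets 236681_at and 207398_at were named after their values were seen. Members and lists were chosen with earlier results of these data known. Alternatives covered filtering, a floor, probe set choice, centring, the variance model, the arrays in the fit, an RNA quality covariate and single omissions.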

Additional observations from a re-analysis of the deposited data

Results flagged for a closer look

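In 4 of the 30 groups of 4 lines examined over the 15 histone probe sets that reached 3, 1 line stood apart by Dixon's criterion, under which the gap to the nearest line is a large share of the group's range. Chance gives such a gap in about 1 of 20 groups. H2AC17 was 5.11 in HOXD9 clone c, where the gap was 0.926 of the range. H2AC6 was 4.46 in HOXD9 clone b, below the other HOXD9 lines (0.844). H2AC8 was 3.23 in HOXD13 clone b (0.994) and 2.55 in HOXD9 clone c (0.987), with the other lines at the floor. HOXD13 clone c did not meet the criterion in any histone probe set.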

How the results depend on the processing

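The count of histone probe sets called for HOXD13 was 0 in the main fit. Leaving out probe sets ending in _s_at or _x_at only dropped members from that fit, so this count could not rise. Centring each array on its median could not change it either, because all arrays of a tag set share 1 median. The count stayed at 0 with the brightest probe set per gene, without the variance trend, with the tag set alone and with 1 variance per group. It was 2 with the filter of at least 5 on at least 3 arrays, 2 with values under 4 set to 4 (38 members then constant and not tested), 4 with the ACTB covariate, between 0 and 7 over the single omissions (7 without HOXD13 clone c, otherwise 0), and, in fits added after seeing the data, 10 without clone c of both HOX genes (19.6%, against 7.82% of all probe sets) and 9 with the filter and without HOXD13 clone c (of 10 tested, against 17.2%). The count for the difference of effects lay between 0 and 7 over these settings: 0 to 4 over the single omissions, 7 without both clones c and 7 with the filter and without HOXD13 clone c. No setting gave a call for HOXD9. The median difference of the members was 1.08 for HOXD13 and 0.35 for HOXD9 with the filter, which keeps 10 members, and 1.51 and 0.35 with the filter and without HOXD13 clone c.

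The HOXD9 difference of H1-2, 0.00 with all arrays, ran between -0.30 and 0.22 over the single omissions. It was -0.67 with the ACTB covariate and -0.30 without both clones c, and that of H2BC5 (222067_x_at) was -0.14 with the covariate. The HOXD9 difference of H2BC5 (209911_x_at) was 0.11 with the covariate, and the cause was not tested. No paired analysis was possible because HOX lines and vectors share no replicate numbers. Values near the floor depend on the background model, and a call with 1 clone removed rests on 3 related lines. The vectors vary less than the lines, with a median SD of 0.06 for V5 vectors and 0.27 for HOXD13 lines over filtered probe sets, while the fit pools the spread.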
